A study of Mus musculus with 6 samples.

Results

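The circadian clock genes *Nr1d1*, *Nr1d2*, *Dbp*, *Tef*, *Per1*, *Per2*, *Cry1*, *Cry2*, *Clock* and *Bhlhe40* were followed in mouse Lin-CD117+ hematopoietic stem cells (HSCs) treated with GA. They were chosen by gene symbol and are 10 of the 18121 genes in the expression table. The choice was made with the GA and Ctrl values of these same libraries known, so the differences between GA and Ctrl are given for the 10 genes as a description, without a test. The GA group (3 libraries) was exposed for 24 h to glycyrrhizic acid, the sweet-tasting saponin of licorice. The Ctrl group (3 libraries) stayed in normal culture. Both groups were bone marrow cells of C57BL/6 mice aged 8 weeks according to the isolation protocol, from which lineage-positive cells were removed before CD117+ cells were collected, and no genetic alteration is named for either. The GA concentration, the number of mice behind each library and the time of day at which cells were taken are not given in the sources used here. In bulk RNA, fewer cells of a type and less RNA per cell cannot be told apart.

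The mammalian clock is a feedback loop of transcription that runs in most cells. CLOCK, or its relative NPAS2, pairs with BMAL1, the product of *Arntl*, and activates genes with an E-box, among them *Per*, *Cry*, *Nr1d1* and *Dbp*. PER and CRY proteins then repress CLOCK and BMAL1, and the nuclear receptors REV-ERBα and REV-ERBβ, encoded by *Nr1d1* and *Nr1d2*, repress *Arntl* and other genes through the RORE, which ROR receptors activate. DBP, TEF and HLF activate genes with a D-box, NFIL3 represses them, and BHLHE40 and BHLHE41 compete for E-boxes. In bone marrow the clock is known for daily rhythms in the release of stem cells into the blood.

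Expression was given as FPKM (fragments per kilobase of transcript, scaled to the mapped fragments of the library), a unit that allows levels to be compared between genes. Of the 18121 genes, 10912 averaged 1 FPKM or more across the 6 libraries and were tested with limma on log2(FPKM + 1). Of the 10 clock genes, 9 passed this filter and *Per2* did not. The FPKM values summed to 515444 to 555449 in GA libraries and 508672 to 511802 in Ctrl libraries. GA replicate 1 differed from all other libraries. Its score was 14.97 on the leading principal component (39.6% of the variance), against -5.82 to 0.25 for the other libraries. In GA replicate 1 the shortest eighth of genes lay at a median of 0.19 and the longest at -0.16 on the log2 scale, relative to the Ctrl mean. In GA replicates 2 and 3 the shortest eighth lay at 0.10 and 0.07 and the longest at -0.02 and 0.006. Ctrl libraries lay at -0.006 to 0.006 and at -0.006 to 0.009. Leaving out GA replicate 1 therefore does not remove the shift of short genes in GA. The values of the 10 genes are therefore given for each library, and their group differences also without GA replicate 1. Stem and progenitor markers summed to 526 to 547 FPKM in GA and 536 to 548 FPKM in Ctrl over 10 genes, of which *Mecom* was below 1 FPKM. *Kit*, which encodes CD117, was at 16.0, 20.4 and 21.2 FPKM in GA replicates 1, 2 and 3 and at 19.6, 17.1 and 17.8 FPKM in Ctrl. All 7 lymphoid markers analysed were below 1 FPKM.

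All 10 genes were detected in all 6 libraries. By mean level the order in GA was *Bhlhe40*, *Per1*, *Nr1d1*, *Tef*, *Cry1*, *Cry2*, *Nr1d2*, *Clock*, *Dbp* and *Per2*. Neighbours whose GA libraries overlapped in level were *Bhlhe40* and *Per1*, *Per1* and *Nr1d1*, *Tef* and *Cry1*, *Cry1* and *Cry2*, and *Clock* and *Dbp*. In Ctrl the order was *Per1*, *Bhlhe40*, *Nr1d1*, *Tef*, *Cry1*, *Cry2*, *Nr1d2*, *Dbp*, *Clock* and *Per2*, and only the libraries of *Cry1* and *Cry2* overlapped.

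**Figure D1:**
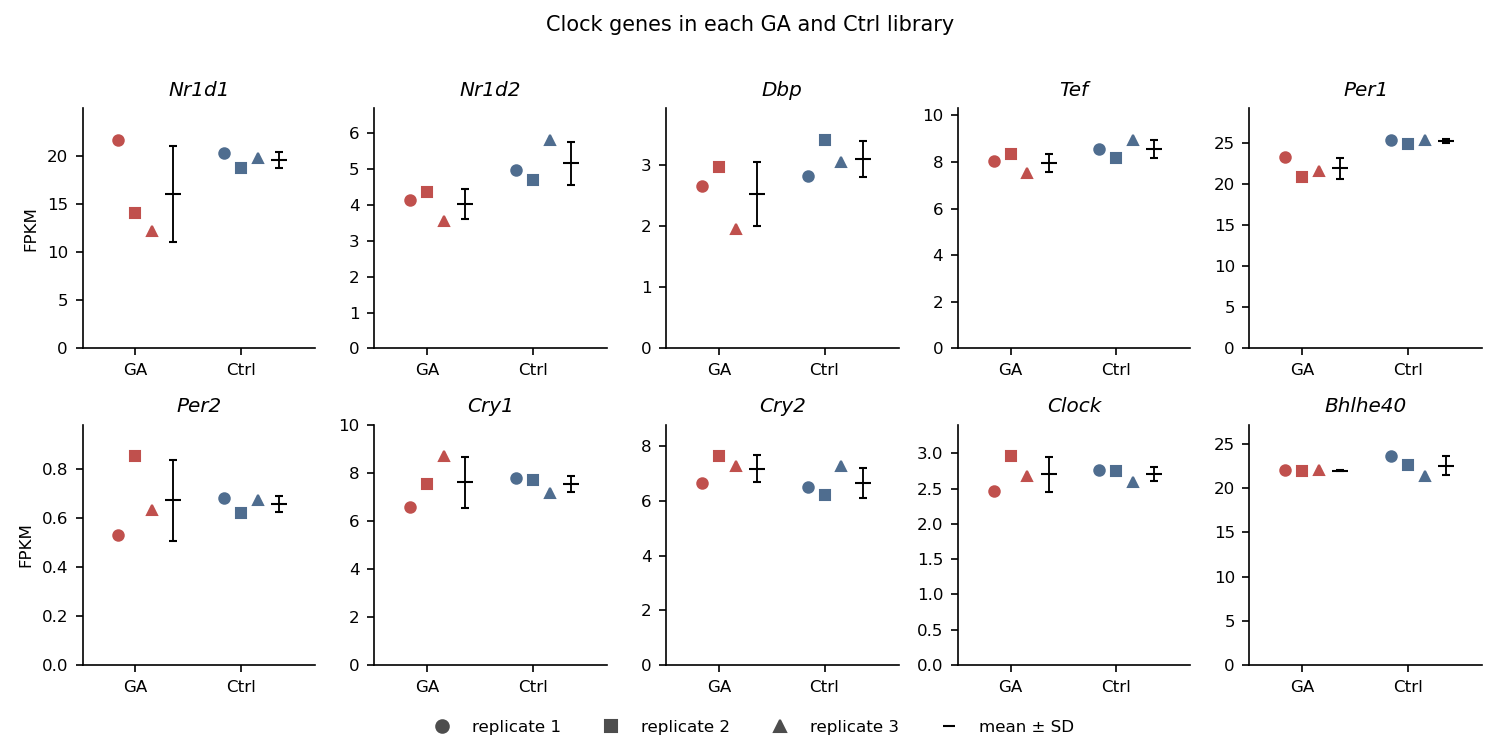
FPKM (y axis, from 0, a separate scale for each gene) of the 10 clock genes in the 3 GA libraries (red, left) and the 3 Ctrl libraries (blue, right) of each panel; symbols mark replicates 1, 2 and 3, and black bars the mean ± SD. *Nr1d1* was at 21.7 FPKM in GA replicate 1 but 14.1 and 12.3 FPKM in GA replicates 2 and 3, and all GA points of *Nr1d2* and *Per1* lay below all Ctrl points.

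The promoters of some of the genes on which the results turn are shown so that their clock motifs can be seen beside the values. RefSeq start sites on GRCm38.p6 gave a window of 250 bases before the start for 8 of the 10 genes, some with several starts; *Per2* and *Bhlhe40* had none. The first window of each gene is written 5′ to 3′ on the gene's strand. Capitals mark the E-box CACGTG, the E′-box CACGTT, the RORE core AGGTCA and the D-box TTATGNAA, each searched on both strands, so that AACGTG and TGACCT are the E′-box and the RORE core read from the other strand. The motifs did not overlap.
*Nr1d1* (chr11:98775378-98775627, minus strand): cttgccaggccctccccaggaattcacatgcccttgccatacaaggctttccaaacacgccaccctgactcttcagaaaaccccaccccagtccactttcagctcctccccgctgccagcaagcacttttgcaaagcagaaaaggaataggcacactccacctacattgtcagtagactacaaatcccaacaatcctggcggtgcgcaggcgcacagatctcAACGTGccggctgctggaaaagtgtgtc
*Nr1d2* (chr14:18239107-18239356, minus strand): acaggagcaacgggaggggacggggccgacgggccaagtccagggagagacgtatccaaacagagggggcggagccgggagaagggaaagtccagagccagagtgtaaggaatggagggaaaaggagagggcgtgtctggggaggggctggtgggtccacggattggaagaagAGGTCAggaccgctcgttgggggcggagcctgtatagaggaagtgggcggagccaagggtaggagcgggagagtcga
*Per1* (chr11:69098699-69098948, plus strand): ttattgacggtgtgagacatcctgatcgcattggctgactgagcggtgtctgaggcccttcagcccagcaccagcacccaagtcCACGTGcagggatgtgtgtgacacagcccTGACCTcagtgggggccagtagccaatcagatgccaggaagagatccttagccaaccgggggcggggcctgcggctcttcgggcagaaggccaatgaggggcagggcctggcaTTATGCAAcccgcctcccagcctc
*Cry1* (chr10:85185055-85185304, minus strand): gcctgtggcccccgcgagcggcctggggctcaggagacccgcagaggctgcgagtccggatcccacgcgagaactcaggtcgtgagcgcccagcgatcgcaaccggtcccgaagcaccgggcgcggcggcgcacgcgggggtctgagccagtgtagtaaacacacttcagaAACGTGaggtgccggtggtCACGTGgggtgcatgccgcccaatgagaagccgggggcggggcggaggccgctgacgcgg
*Ciart* (chr3:95882229-95882478, minus strand): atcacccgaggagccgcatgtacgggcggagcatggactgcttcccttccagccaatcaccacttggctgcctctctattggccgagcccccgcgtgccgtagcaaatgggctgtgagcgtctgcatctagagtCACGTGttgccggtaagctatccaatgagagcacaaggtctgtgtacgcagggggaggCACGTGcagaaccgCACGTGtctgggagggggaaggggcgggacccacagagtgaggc

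*Nr1d1*, *Nr1d2* and *Per1* are shown for their values in GA, *Cry1* as a clock gene with an E-box and overlapping groups, and *Ciart*, a clock repressor outside the 10 genes, because its library pattern resembled that of *Nr1d1*. The E-box began 166 bases before the start of *Per1*, 60 bases before that of *Cry1*, and 116, 58 and 44 bases before that of *Ciart*. It lay in the windows of 3 of the 8 genes (*Tef*, *Per1* and *Cry1*), against 6.86% of 27025 genes with a window. The E′-box was found in *Nr1d1*, *Cry1* and *Cry2* (3 of 8 genes, against 4.50% of genes), and began 28 bases before the start of *Nr1d1*. The RORE core was found in *Nr1d2*, *Per1* and *Clock* (3 of 8 genes, against 15.8% of genes), and the D-box in *Per1* alone of the 8 (against 3.63% of genes). The windows of *Dbp*, *Npas2* and *Arntl*, which are not printed, held none of these motifs. All of these are matches of letters and were not tested as binding sites.

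*Nr1d1* (gene 217166, chromosome 11, 98767932 to 98775333, minus strand, GRCm38) gave the widest spread among the GA libraries of the 9 tested clock genes. It was at 21.7, 14.1 and 12.3 FPKM in GA replicates 1, 2 and 3, against 20.3, 18.7 and 19.9 FPKM in Ctrl replicates 1, 2 and 3. GA replicate 1 lay above every Ctrl library, and GA replicates 2 and 3 below every Ctrl library. The GA libraries differed from the Ctrl mean by 10.6%, -28.1% and -37.5%. Group means were 16.0 ± 5.01 FPKM in GA and 19.6 ± 0.81 FPKM in Ctrl (SD, n = 3 each), with a log2 fold change of -0.32 (SE 0.16), which was -0.54 without GA replicate 1 and -0.15 without GA replicate 3. The SD of its log2 values in GA was 0.40, at percentile 99.5 of the tested genes, whereas its SD in Ctrl was at percentile 54.6. The pattern of GA replicate 1 above and GA replicates 2 and 3 below every Ctrl library was shared by 214 of the tested genes (1.96%).

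Length and neighbouring transcripts were set beside these values. For 1362 tested genes within 10% of the length of *Nr1d1*, the median difference from the Ctrl mean was -0.03, 0.02 and 0.05 on the log2 scale in GA replicates 1, 2 and 3, against 0.14, -0.45 and -0.64 for *Nr1d1* itself. *Thra*, which encodes a thyroid hormone receptor, lies on the opposite strand and covers 263 of the 3077 exon bases of *Nr1d1*. The strand setting of the counting is not given in the sources used here, so reads of the shared bases cannot be told apart. *Thra* was at 16.5, 15.3 and 13.9 FPKM in GA and 15.7, 15.1 and 15.0 FPKM in Ctrl. The ratio of *Nr1d1* to *Thra* within a library was 1.31, 0.93 and 0.89 in GA replicates 1, 2 and 3, against 1.29, 1.24 and 1.33 in Ctrl. This ratio does not separate reads of the shared bases. The part of *Thra* reads in the *Nr1d1* values was not tested.

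The summed megakaryocyte and platelet markers had the same order of GA libraries as *Nr1d1*. Of their 8 genes, all above 1 FPKM, 3 were higher and 5 lower in GA, and they summed to 25169, 20124 and 17952 FPKM in GA replicates 1, 2 and 3, against 19739 to 20386 FPKM in Ctrl. *Pf4*, a chemokine of platelet granules, made up most of this sum, with 17513, 13453 and 11829 FPKM in GA and 13012 to 13592 FPKM in Ctrl. Their part in the *Nr1d1* values was not tested. Neutrophil markers were higher in GA for 8 of 8 genes, with sums of 1844 to 1945 FPKM in GA and 1495 to 1687 FPKM in Ctrl. Mast cell and basophil markers gave 4 higher and 2 lower, with sums of 175.2 to 194.9 FPKM in GA and 163.0 to 173.7 FPKM in Ctrl. Monocyte and macrophage markers gave 2 higher and 6 lower, with overlapping sums. The part of these cell types in the clock gene values was not tested.

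*Nr1d2* (gene 353187, chromosome 14, 18204054 to 18239127, minus strand), the second REV-ERB gene, was lower in every GA library. It was at 4.14, 4.37 and 3.56 FPKM in GA replicates 1, 2 and 3, against 4.97, 4.69 and 5.82 FPKM in Ctrl. The groups did not overlap, and GA replicate 1 lay with the other GA libraries rather than above Ctrl as it did for *Nr1d1*. Genes within 10% of the length of *Nr1d2* (1001 tested) had medians of -0.11, -0.004 and 0.02 in GA replicates 1, 2 and 3. These are log2 differences from the Ctrl mean, which for *Nr1d2* itself were -0.26, -0.19 and -0.43. Means were 4.02 ± 0.42 FPKM in GA and 5.16 ± 0.59 FPKM in Ctrl (SD, n = 3 each), a log2 fold change of -0.29 (SE 0.09) and of -0.31 without GA replicate 1.

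*Per1* (gene 18626, chromosome 11, 69095217 to 69109960, plus strand), a repressor of the loop that is also induced acutely by many signals, was among the most abundant of the 10 genes. It was at 23.3, 20.8 and 21.5 FPKM in GA replicates 1, 2 and 3, against 25.3, 24.9 and 25.3 FPKM in Ctrl. All GA libraries lay below all Ctrl libraries, GA replicate 1 being the nearest to them. Genes within 10% of the length of *Per1* (1009 tested) had medians of -0.11, -0.005 and 0.02 in GA replicates 1, 2 and 3. These are log2 differences from the Ctrl mean, which for *Per1* itself were -0.11, -0.26 and -0.22. In GA replicate 1, *Per1* thus lay at the level of genes of its length. Means were 21.9 ± 1.27 FPKM in GA and 25.2 ± 0.26 FPKM in Ctrl (SD, n = 3 each), a log2 fold change of -0.20 (SE 0.05) and of -0.24 without GA replicate 1. *Per2* (gene 18627, chromosome 1, 91415982 to 91459324, minus strand), its paralog, was at 0.53, 0.85 and 0.63 FPKM in GA and 0.68, 0.62 and 0.67 FPKM in Ctrl. These values overlapped and lay under the filter.

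The cryptochromes, the partners of PER in repression, did not share the lower values of *Per1*. *Cry1* (gene 12952, chromosome 10, 85131700 to 85185064, minus strand) was at 6.60, 7.54 and 8.71 FPKM in GA replicates 1, 2 and 3, against 7.80, 7.71 and 7.16 FPKM in Ctrl. GA replicate 1 lay below every Ctrl library and GA replicate 3 above every Ctrl library, which is the reverse of *Nr1d1*. Its log2 fold change of 0.004 (SE 0.09) was 0.09 without GA replicate 1 and -0.09 without GA replicate 3, and turned to -0.002, -0.003 and -0.05 with median-of-ratios, trimmed-mean and total-sum scaling. *Cry2* (gene 12953, chromosome 2, 92403646 to 92434043, minus strand) was at 6.64, 7.63 and 7.26 FPKM in GA, against 6.51, 6.21 and 7.27 FPKM in Ctrl. These groups overlapped, with a log2 fold change of 0.09 (SE 0.08), 0.14 without GA replicate 1, that was positive in all 19 settings run.

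Among the D-box activators, *Dbp* had lower values and *Tef* differed little. *Dbp* (gene 13170, chromosome 7, 45705088 to 45710203, plus strand) was at 2.67, 2.98 and 1.96 FPKM in GA replicates 1, 2 and 3, against 2.83, 3.42 and 3.06 FPKM in Ctrl. The groups overlapped through GA replicate 2, and GA replicate 3 was the lowest library. Means were 2.54 ± 0.52 FPKM in GA and 3.10 ± 0.30 FPKM in Ctrl (SD, n = 3 each), a log2 fold change of -0.22 (SE 0.11), which was -0.26 without GA replicate 1 and -0.10 without GA replicate 3. *Sphk2*, which encodes a sphingosine kinase, shares 539 of the 2993 exon bases of *Dbp* on the opposite strand and averaged 49.0 FPKM in GA and 52.6 FPKM in Ctrl. As the strand setting is not given, reads of these shared bases cannot be told apart, and *Sphk2* was far above *Dbp* in level. The part of *Sphk2* reads in the *Dbp* values was not tested. *Tef* (gene 21685, chromosome 15, 81802421 to 81826863, plus strand) was at 8.02, 8.32 and 7.54 FPKM in GA, against 8.56, 8.18 and 8.95 FPKM in Ctrl. The groups overlapped, with a log2 fold change of -0.09 (SE 0.06), -0.10 without GA replicate 1 and -0.06 without GA replicate 3.

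The activator *Clock* and the E-box competitor *Bhlhe40* had overlapping groups. *Clock* (gene 12753, chromosome 5, 76209868 to 76304792, minus strand) was at 2.47, 2.96 and 2.68 FPKM in GA replicates 1, 2 and 3, against 2.77, 2.75 and 2.59 FPKM in Ctrl, and its mean was 2.70 FPKM in both groups. Its log2 fold change was -0.002 (SE 0.08), but 0.04 without GA replicate 1 and 0.06 with the length trend removed. *Bhlhe40* (gene 20893, chromosome 6, 108660629 to 108666925, plus strand) was at 22.0, 21.9 and 22.0 FPKM in GA, against 23.6, 22.7 and 21.4 FPKM in Ctrl. Its GA libraries were as narrow as those of *Nr1d1* were wide: the SD of its log2 values in GA was at percentile 0.229 of the tested genes. Its log2 fold change was -0.04 (SE 0.05), with and without GA replicate 1.

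**Figure D2:**
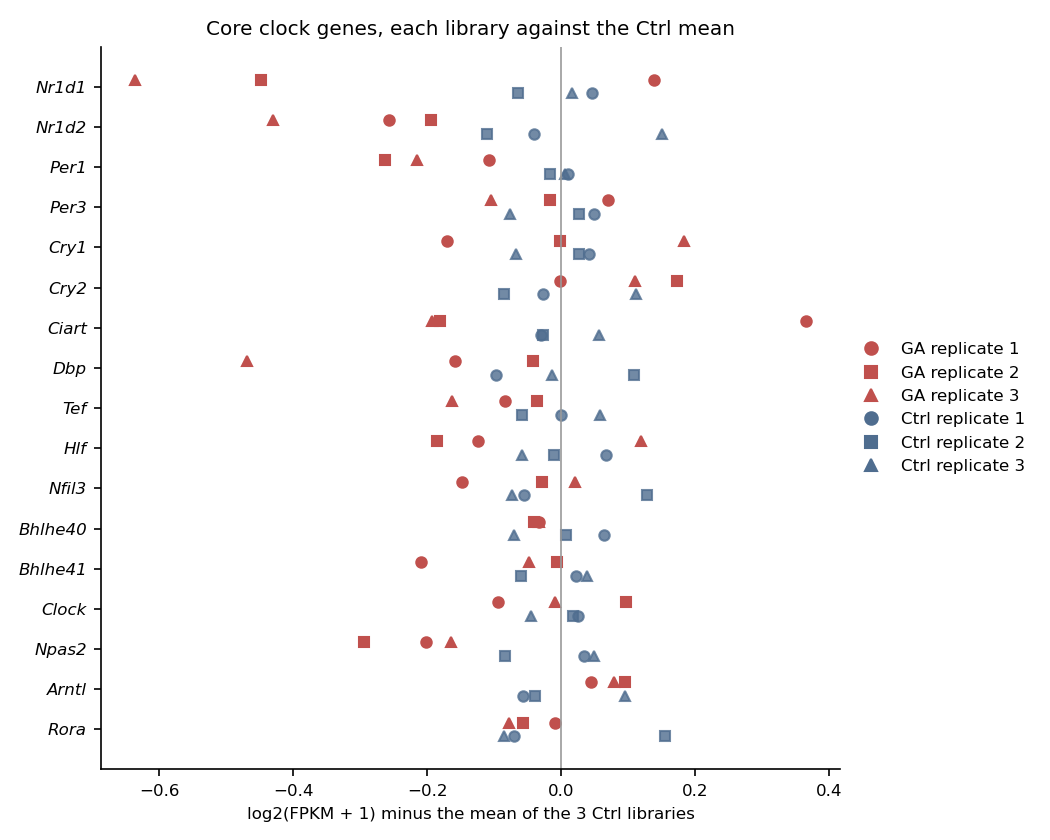
Difference of log2(FPKM + 1) from the mean of the 3 Ctrl libraries (x axis, log2 scale) for each GA library (red) and each Ctrl library (blue) and 17 core clock genes (rows); symbols mark replicates 1, 2 and 3. *Nr1d1* spans 0.14 to -0.64 over the GA libraries, the points of *Nr1d2*, *Per1* and *Npas2* in GA all lie left of their Ctrl points, and *Ciart* has GA replicate 1 far to the right.

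Of the 9 tested clock genes, 7 were lower and 2 higher in GA, whereas 54.8% of all genes tested were higher. Their median log2 fold change was -0.09, beside 0.01 over all genes tested. In 2 of them, *Nr1d2* and *Per1*, every GA library lay below every Ctrl library, which held for 8.29% of all genes tested, and in 0 of them above (11.6% of all genes). No gene of the table passed an adjusted p of 0.05 in limma (0 of 10912 in either direction, 0%). At an unadjusted p under 0.05, 969 genes were higher (8.88%) and 505 lower (4.63%). Without GA replicate 1, 54 genes passed the adjusted threshold as higher (0.495%) and 60 as lower (0.55%). With the length trend of each library removed as well, 9 genes were called higher (0.0825%) and 68 lower (0.623%). Rescaling each library to a total of 1000000 gave 3 lower genes (0.0275%). The 10 genes were chosen from this contrast, so no call is given for them and nothing is read from their counts. *Nr1d1*, *Tef*, *Per1* and *Bhlhe40* kept a negative log2 fold change in each of the 19 settings. *Nr1d2* and *Dbp* did so in the 18 settings that tested them. Ranges were -0.57 to -0.15 for *Nr1d1*, -0.37 to -0.22 for *Nr1d2* and -0.31 to -0.10 for *Dbp*. They were -0.15 to -0.06 for *Tef*, -0.26 to -0.16 for *Per1* and -0.09 to -0.003 for *Bhlhe40*. All settings draw on the same libraries.

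The level of a repressor relative to *Arntl*, its activator, is a ratio within a library that does not depend on scaling. Such a ratio can still depend on transcript length, which was 4663 bases for *Nr1d2*, 4653.5 for *Per1* and 2731 for *Arntl*. *Nr1d2* over *Arntl* was 1.33, 1.34 and 1.11 in GA replicates 1, 2 and 3, against 1.76, 1.63 and 1.79 in Ctrl. *Per1* over *Arntl* was 7.48, 6.38 and 6.70 in GA, against 8.95, 8.63 and 7.75 in Ctrl. Both ratios were lower in every GA library than in any Ctrl library, for genes chosen with their values in this contrast known. The ratios *Per1* over *Cry1*, *Nr1d1* over *Nr1d2*, *Npas2* over *Clock* and *Dbp* over *Nfil3* overlapped between the groups. *Nr1d1* over *Arntl* was 6.98, 4.33 and 3.82 in GA, against 7.18, 6.51 and 6.10 in Ctrl, and overlapped through GA replicate 1. *Arntl* itself was at 3.11, 3.26 and 3.21 FPKM in GA, against 2.83, 2.88 and 3.26 FPKM in Ctrl, a log2 fold change of 0.07 (limma adjusted p = 0.737).

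The other 11 core clock genes were read from the same fit, and 8 of them passed the filter. Of these 8, 7 were lower and 1 higher, 0 passed the adjusted threshold, and the median log2 fold change was -0.05. The count was 5 lower and 3 higher with the length trend removed, without GA replicate 3 and without Ctrl replicate 2, with a median of -0.01 in the last of these. *Npas2*, the relative of *Clock*, was at 9.68, 9.01 and 9.96 FPKM in GA replicates 1, 2 and 3, against 11.6, 10.6 and 11.7 FPKM in Ctrl. Its groups did not overlap, with a log2 fold change of -0.22 (limma adjusted p = 0.239, and 0.102 to 0.610 over the alternatives) and of -0.23 without GA replicate 1. Genes within 10% of the length of *Npas2* (1171 tested) had medians of -0.10, -0.002 and 0.02 in GA replicates 1, 2 and 3. These are log2 differences from the Ctrl mean, which for *Npas2* itself were -0.20, -0.29 and -0.16. *Ciart* was at 12.7, 8.40 and 8.33 FPKM in GA, against 9.44, 9.46 and 10.1 FPKM in Ctrl. As for *Nr1d1*, GA replicate 1 lay above and GA replicates 2 and 3 below every Ctrl library, and the log2 fold change was -0.002 (limma adjusted p = 0.997) and -0.19 without GA replicate 1 (limma adjusted p = 0.111, and 0.088 to 1.0 over the alternatives). *Per3*, *Rora*, *Bhlhe41*, *Nfil3* and *Hlf* had log2 fold changes between -0.09 and -0.02, with overlapping groups.

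**Figure D3:**
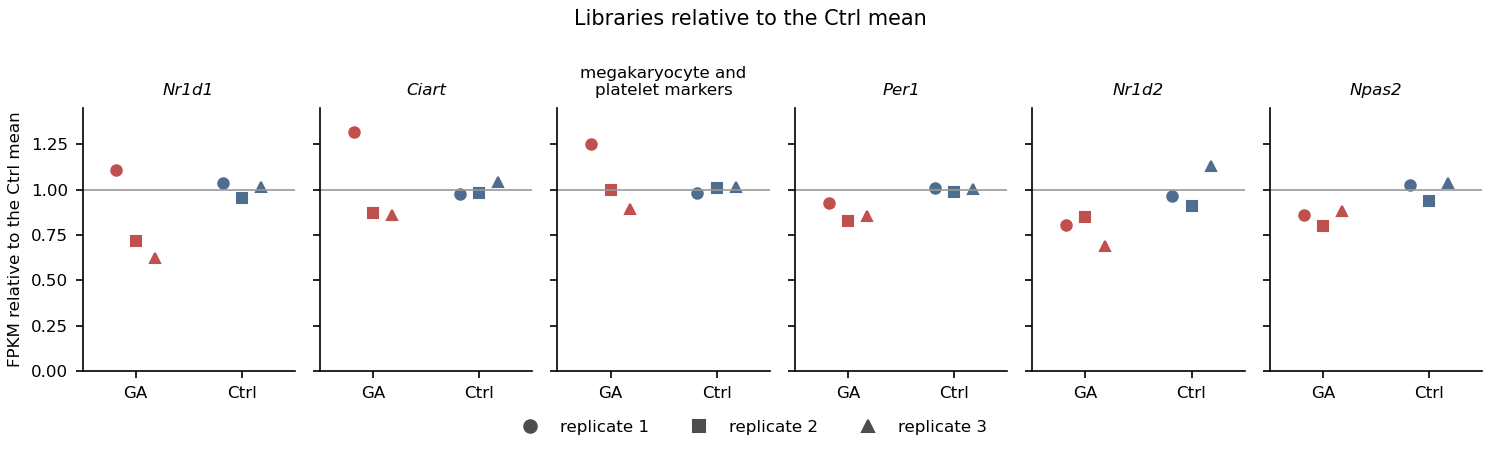
FPKM relative to the Ctrl mean (y axis, ratio) in each GA library (red, left) and Ctrl library (blue, right) for *Nr1d1*, *Ciart*, the summed megakaryocyte and platelet markers, *Per1*, *Nr1d2* and *Npas2*; symbols mark replicates 1, 2 and 3. GA replicate 1 is the highest point for *Nr1d1*, *Ciart* and the marker sum, whereas for *Per1*, *Nr1d2* and *Npas2* all GA points lie below all Ctrl points.

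Wider clock lists were described by their counts. Over all genes tested, with all 6 libraries and no rescaling, 5981 were higher and 4931 lower in GA (54.8% higher). Rescaling to a total of 1000000 moved the median log2 fold change of all genes tested from 0.01 to -0.04. Counts in that setting thus lean lower over the whole table, not only in the clock lists. Over 60 other clock genes tested, 22 were higher and 38 lower, with 10 and 50 when rescaled and 27 and 33 without GA replicate 1 as the extremes of the settings that tested all 60. Their median log2 fold change was -0.03, and 0 passed the adjusted threshold (3 higher and 4 lower at an unadjusted p under 0.05). Every GA library lay below every Ctrl library for 7 of them (11.7%, against 8.29% of all genes) and above for 4 (6.67%, against 11.6%). Without GA replicate 1, the smallest limma adjusted p among them was 0.063, for *Tipin*, whose adjusted p ran to 0.590 over the alternatives.

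The kinases and ubiquitin ligases that act on PER, CRY and REV-ERB proteins gave 6 higher and 10 lower of 16 tested, which became 2 and 14 when libraries were rescaled to a total of 1000000. *Gsk3b*, a kinase that phosphorylates several clock proteins, averaged 14.1 ± 0.35 FPKM in GA and 16.2 ± 0.19 FPKM in Ctrl (SD, n = 3 each, log2 fold change -0.19, limma adjusted p = 0.217). The groups did not overlap. *Gsk3b* had a log2 fold change of -0.13 with the length trend removed, and a limma adjusted p of 0.088 to 0.656 over the alternatives. *Csnk2b*, a regulatory subunit of casein kinase II, lay above Ctrl in every GA library, with means of 183.1 FPKM in GA and 169.6 FPKM in Ctrl (log2 fold change 0.11, limma adjusted p = 0.331). With the length trend removed its log2 fold change was 0.0085.

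The corepressor genes through which REV-ERBs act gave 2 higher and 4 lower of 6 tested, and 0 and 6 when libraries were rescaled or the length trend was removed. *Ncor1*, the main corepressor of REV-ERBs, averaged 57.9 FPKM in GA and 61.9 FPKM in Ctrl without overlap (log2 fold change -0.10, and -0.04 with the length trend removed). Coactivators and partners gave 7 higher and 9 lower of 16, and 4 and 12 when rescaled, 10 and 6 with the length trend removed, and 8 and 8 without GA replicate 1. *Tipin*, which encodes the partner of TIMELESS in DNA replication, had the largest difference among them, 36.3 ± 0.68 FPKM in GA and 29.4 ± 2.59 FPKM in Ctrl (SD, n = 3 each, log2 fold change 0.30, limma adjusted p = 0.174). Clock output genes gave 4 higher and 5 lower of 9, and REV-ERB target genes 4 higher and 6 lower of 10, *Arntl* and *Npas2* being among the targets. Without GA replicate 1 these became 7 and 2, and 6 and 4, whereas rescaling gave 1 and 8, and 3 and 7. REV-ERB target genes were also 7 higher and 3 lower without Ctrl replicate 1. In none of these lists did a gene pass the adjusted threshold.

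**Figure D4:**
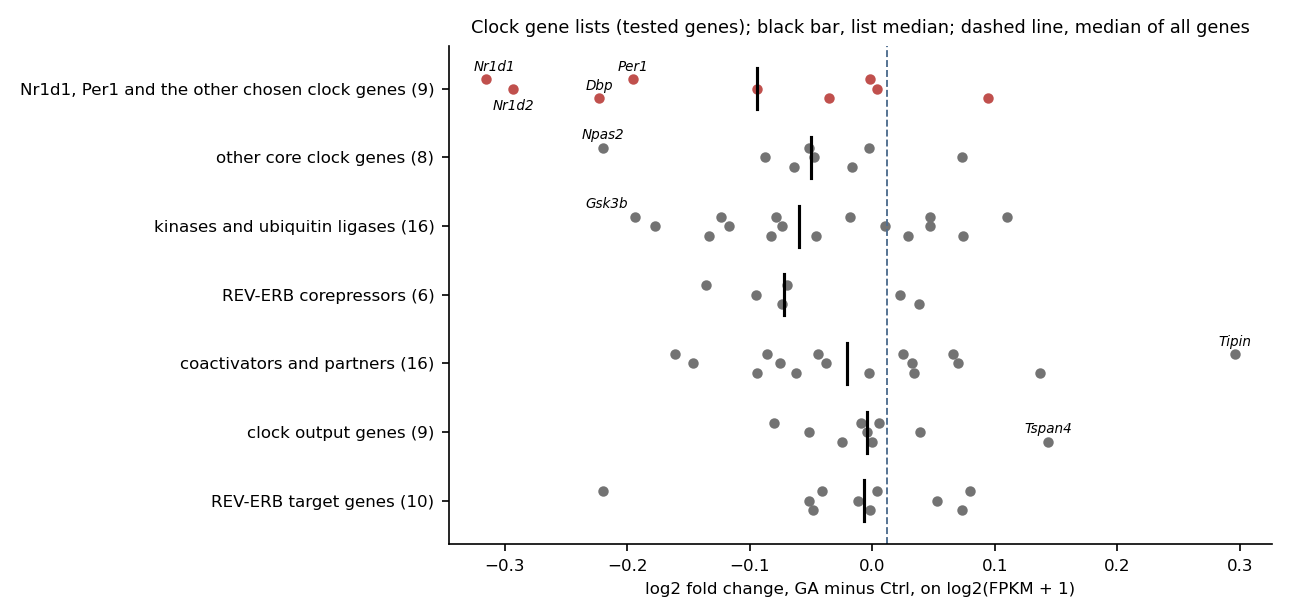
Log2 fold change, GA minus Ctrl, on log2(FPKM + 1) (x axis) of each tested gene (points) in the 10 chosen clock genes (red) and 6 further clock lists (grey); rows give the list and its number of tested genes, black bars the list median and the dashed line the median of all genes tested. *Nr1d1*, *Nr1d2*, *Dbp* and *Per1* lie at -0.32 to -0.20, *Npas2* at -0.22 and *Tipin* at 0.30, and the list medians run from -0.09 to -0.005.

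Genes were also ranked by how near their profile lay to that of *Nr1d1*, as the root mean square difference of centred log2 values over the 6 libraries. The 5 nearest of 10911 were *Tmem91*, a membrane protein gene (0.06), *Nrgn*, which encodes neurogranin (0.10), *Gadd45b*, a stress-inducible gene (0.11), *Hbb-y*, an embryonic beta-like globin gene (0.12), and *Dusp14*, a phosphatase gene (0.12). *Nrgn* was at 1413, 1057 and 975.2 FPKM in GA replicates 1, 2 and 3, against 1327, 1395 and 1332 FPKM in Ctrl. *Gadd45b* was at 50.5, 39.9 and 33.0 FPKM in GA, against 45.3, 44.3 and 50.1 FPKM in Ctrl. In both, GA replicate 1 was the highest library and GA replicates 2 and 3 were the lowest, as for *Nr1d1*. The same held for *Hbb-y*. In *Tmem91* and *Dusp14*, GA replicate 1 lay within the Ctrl range. *Tmem91* was at 1.64, 0.95 and 0.65 FPKM in GA, against 1.83, 1.46 and 1.56 FPKM in Ctrl. *Dusp14* was at 11.14, 8.96 and 7.53 FPKM in GA, against 10.7, 10.94 and 12.35 FPKM in Ctrl. Among clock genes *Ciart* ranked 58, *Per1* 180, *Nr1d2* 325, *Dbp* 470, *Npas2* 704, *Tef* 954 and *Bhlhe40* 2105. *Arntl* ranked 5856, *Clock* 5860, *Cry2* 8563 and *Cry1* 9810. *Thra*, the opposite-strand neighbour of *Nr1d1*, ranked 475, close to *Dbp*. The clock genes were chosen with their GA and Ctrl values known. Their ranks rest on the same values, so no likeness among clock genes is read from them. Nearness was measured over libraries of which GA replicate 1 stands apart, and it gives no statement on shared control.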

How the data were processed

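Total RNA of 6 samples of cultured Lin-CD117+ HSCs was extracted with TRIzol and sequenced as DNBSEQ libraries. The deposited values are FPKM, which the authors calculated with RSEM; the submitters' processing notes name HISAT2 2.0.4, Bowtie2 2.2.5 and mm10. A library enriched in short transcripts has higher FPKM for short genes, a shift between libraries that division by length does not remove. The annotation and strand setting are not given in the sources used here.

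The members and gene lists were chosen with earlier results of these data known. Titles gave 3 GA and 3 Ctrl libraries, and 0 columns of per-sample values lacked a sample. Separate animals or cultures are not named, so the spread behind each p-value is that between these samples and may be technical. limma 3.58.1 (R 4.3.3; trend, two-sided) was run on log2(FPKM + 1) of genes averaging 1 FPKM or more, with Benjamini-Hochberg adjustment at 0.05. Such fold changes understate those of low genes. Low values did not resolve into whole reads, so depth is unknown and no count test was run. The alternatives were 18 other settings of pseudocount, filter, scaling, length trend, replicate block and left-out libraries. Total-sum scaling shifted the median of all genes to -0.04, beside 0.01. Positions and lengths came from GENCODE on GRCm38. Named genes were the members, the other core clock genes, up to 2 genes per direction with the smallest p in each further list, opposite-strand neighbours, the 5 nearest profiles to *Nr1d1*, and *Kit*, *Cd34*, *Pf4* and *S100a8*. Some genes that this rule names are not reported here.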

Additional observations from a re-analysis of the deposited data

How the results depend on the processing

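No gene passed the adjusted threshold with all 6 libraries, apart from 3 lower genes when libraries were rescaled to a total of 1000000. Leaving out 1 library at a time gave 0 to 54 higher and 0 to 60 lower genes, the largest counts without GA replicate 1. Without GA replicate 1 and with the length trend removed there were 9 higher and 68 lower genes. The cause was not tested. Rescaling to 1000000 moved *Per1* to -0.26 and *Bhlhe40* to -0.09. Of genes at an unadjusted p under 0.05, 969 were higher and 505 lower, against 295 and 860 after rescaling to 1000000. Same-numbered libraries did not deviate together (0 of 3 correlations over 0.1), and the replicate block gave 0 higher and 0 lower genes. With 3 libraries against 3, an exact two-sided permutation test cannot go below 0.1. Depth is unknown, so low values such as those of *Per2* carry no interval.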

Other observations

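*Cd34*, a stem and progenitor marker, averaged 43.7 ± 0.67 FPKM in GA and 41.5 ± 1.43 FPKM in Ctrl (SD, n = 3 each). *S100a8*, an alarmin of neutrophils, averaged 350.1 ± 33.1 FPKM in GA and 262.1 ± 16.5 FPKM in Ctrl (SD, n = 3 each). Its transcript length was 486 bases, and the shortest eighth of genes was raised in every GA library. On the log2 scale, *S100a8* lay 0.56, 0.31 and 0.37 above the Ctrl mean in GA replicates 1, 2 and 3. The medians of the shortest eighth were 0.19, 0.10 and 0.07. The part of length in the *S100a8* values was not tested. *Tspan4*, a tetraspanin gene on the clock output list, averaged 69.7 ± 1.59 FPKM in GA and 63.0 ± 0.65 FPKM in Ctrl (SD, n = 3 each), with every GA library above every Ctrl library (log2 fold change 0.14, limma adjusted p = 0.238, and 0.08 on the log2 scale with the length trend removed).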
